A study of Mus musculus with 2 samples.

Results

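The genes described here are 56 semaphorins, slits, netrins and ephrins with their receptors, taken by name as families of guidance cues, with earlier results of these data known. All 56 were matched to an NCBI gene number among the 41709 entries of the deposited tables. They fell into 4 families, of which the semaphorins with their plexin and neuropilin receptors held 27 genes, the slits and robos 5, the netrins with their receptors 6, and the ephrins with their Eph receptors 18.

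Polyadenylated RNA of whole mouse lung was sequenced in 1 library labelled Prmt5 knockdown and 1 control library. Both came from C57BL/6 embryos at E14.5, a stage at which the airway branches, and each library was a pool of 7 lungs. The knockdown sample's title carries both gene names, Shh and Prmt5. No allele, promoter, Cre or other agent is named for either, nor the cells it acts in. The control lung is wild type by the design text. By its title the study addressed histone arginine methylation and Bmp repression in branching; guidance genes are not part of that wording.

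The knockdown library held 25829281 counted reads and the control library 22581490. Prmt5 itself, an arginine methyltransferase, had 2127 reads in the knockdown library and 2704 in the control, 1.35-fold lower (log2 -0.43, 95% counting interval -0.51 to -0.35), which is short of the 1.5-fold rule used below. Shh, the hedgehog ligand of the lung epithelium, had 109 reads in the knockdown library and 1124 in the control. The knockdown library also differed in markers of other organs. All 8 liver, 8 heart muscle and 7 skeletal muscle markers were higher in it, and their summed levels were 5717, 4484 and 713.7 FPKM, against 34.1, 124.1 and 18.9 FPKM in the control. Of 15 lung epithelial markers 11 were lower and none higher (median log2 -2.04, summed level 413.1 FPKM in the knockdown library and 1242 FPKM in the control). Whether the knockdown pool held tissue of other organs was not tested, and every ratio below is of whole libraries. In whole-lung RNA, fewer cells of a type and less RNA per cell cannot be told apart.

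Guidance cues are secreted or membrane-bound proteins that attract or repel growing axons, and the same proteins steer endothelial cells and shape epithelial buds. Semaphorins signal through plexins, and most secreted class 3 semaphorins need a neuropilin as the binding partner. Slits act through robo receptors, netrins through Dcc, neogenin (Neo1) and Unc5 receptors, and ephrins through Eph receptor tyrosine kinases on the neighbouring cell, with signals running into both cells. In the lung, netrins are known from mouse studies to lie along the epithelial stalks, where they restrain budding, and ephrin-B2 with EphB4 marks arterial and venous endothelium.

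More guidance genes were lower than higher in the knockdown library. Genes with 50 or more reads in either library were counted as measured. The rule of size asked for a ratio of knockdown over control of at least 1.5, or its inverse, and a 95% counting interval without 1. Of the 54 measured members 23 were lower past the rule, 5 were higher and 26 did not pass. Among all 14569 measured genes the same rule called 12.3% lower and 20.7% higher, 33.0% in either direction. The median log2 ratio was -0.48 over the measured members and -0.0071 over all measured genes. Summed over the 56 members, reads made up 0.316% of the knockdown library and 0.487% of the control. With 1 library per genotype there is no spread between replicates and no test, and each interval covers counting error only.

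The share of members called lower was greater at higher levels, while the 3 strongest drops, in Sema3e, Epha5 and Robo2, lay under 5 FPKM. Of 11 measured members with a mean level of 20 to 100 FPKM 7 were lower and 0 higher, where 8.91% of all genes in that range were lower and 11.5% higher. Of 27 members at 5 to 20 FPKM 12 were lower and 1 higher, where 11.0% of all genes were lower and 13.9% higher. Of 16 members under 5 FPKM 4 were lower and 4 higher, where 17.3% of all genes were lower and 34.7% higher. FPKM relates a gene's reads to its length and to all counted reads of the library.

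Over all measured genes, length moved with the ratios, while GC content was not set against them on its own. The measured members had a median length of 5490 bp, against 2897 bp over all measured genes, and over all measured genes longer ones had lower ratios, with a median log2 ratio of -0.21 for the 1682 measured genes of 6000 bp or more and 0.15 for the 4273 under 2000 bp. Among the 54 measured members Spearman's rho of ratio and length was -0.033. The members' median was -0.58 for the 24 of 6000 bp or more and -0.62 for the 2 under 2000 bp. Lengths between these were split into a shorter and a longer class. The 15 members of the shorter class had a median of -0.59, against -0.013 for all 5884 measured genes in it. The 13 members of the longer class had a median of -0.12, against -0.14 for all 2730 measured genes in it. By median, members of that longer class were thus not lower than genes of like length. After the median of genes of like length and GC content was subtracted, 11 members were lower and 9 higher, against 9.43% lower and 21.0% higher of all genes treated the same way, and the members' median was -0.29. The 11 lower members after this step were Efna2, Efna4, Epha3, Epha5, Ephb3, Plxnd1, Robo2, Sema3e, Sema4c, Sema7a and Unc5c. The 12 that lost the lower call were Efnb1, Efnb2, Epha7, Ephb6, Neo1, Plxna1, Plxnb1, Plxnc1, Robo1, Sema3a, Sema3f and Sema3g. Efnb3, Ntn1, Sema4b and Sema5b were gained as higher. Total counts in place of the trimmed mean of M values as the scaling gave 28 lower and 5 higher members, with 16.7% of all genes lower and 18.3% higher. Totals without the 32 red blood cell, liver, heart and skeletal muscle markers gave 26 lower and 5 higher members, with 14.6% of all genes lower and 19.3% higher.

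**Figure D1:**
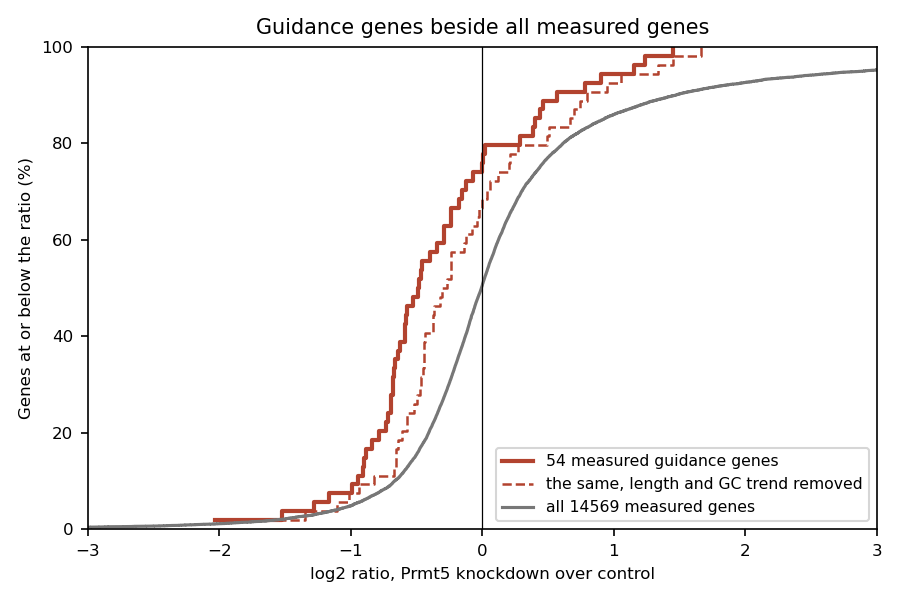
Cumulative share of genes (y axis, %) at or below each log2 ratio of knockdown over control (x axis). The solid red line of the 54 measured guidance genes lies above the grey line of all 14569 measured genes over nearly the whole axis. The dashed red line, with the length and GC trend removed, lies between them over most of it and has a median of -0.29.

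The secreted semaphorins held the member with the strongest drop. Sema3e, a repellent of endothelial cells that binds Plxnd1 without a neuropilin, had 188 reads (1.06 FPKM) in the knockdown library, against 729 reads (4.71 FPKM) in the control. It was 4.10-fold lower (log2 -2.04, -2.28 to -1.81), and its share of the summed level of the 7 secreted semaphorins was 2.42% in the knockdown library and 7.72% in the control. Sema3d, which also acts on endothelial cells through neuropilin, went the other way. It had 1489 reads (8.84 FPKM) in the knockdown library, against 818 reads (5.56 FPKM) in the control, 1.72-fold higher (log2 0.78, 0.66 to 0.90). The 2 genes lie on chromosome 5 on either side of Sema3a, Sema3d at 12383161 to 12588953 and Sema3e at 14025276 to 14256689 (GRCm38). Their promoter windows are shown because these neighbours moved in opposite directions. Each window is the 250 bases before a RefSeq transcript start (GRCm38.p6), 5′ to 3′ on the gene's strand, with capitals for a GC box (GGGCGG or CCGCCC) or a CCAAT box (CCAAT or ATTGG). The Sema3e window is chr5:14025026-14025275 and the Sema3d window chr5:12382916-12383165, both on the plus strand. The Sema3d window reaches a few bases past the outermost start of the gene, and the bases that follow it were not found in the GENCODE M21 transcripts of Sema3d, unlike those of the other windows shown.
Sema3e: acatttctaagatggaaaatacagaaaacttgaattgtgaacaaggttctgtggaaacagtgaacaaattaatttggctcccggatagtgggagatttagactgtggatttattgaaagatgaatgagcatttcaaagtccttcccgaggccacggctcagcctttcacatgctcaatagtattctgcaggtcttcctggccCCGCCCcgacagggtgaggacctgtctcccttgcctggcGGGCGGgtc
Sema3d: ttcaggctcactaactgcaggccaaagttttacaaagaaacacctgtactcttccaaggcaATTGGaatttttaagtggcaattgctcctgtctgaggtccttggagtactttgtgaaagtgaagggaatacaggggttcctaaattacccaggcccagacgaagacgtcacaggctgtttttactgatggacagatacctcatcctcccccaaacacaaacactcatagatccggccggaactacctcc
The Sema3e window held 2 GC boxes and no CCAAT box, and the Sema3d window held 1 CCAAT box and no GC box.

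Of the other secreted semaphorins 3 were lower past the rule. Sema3f, a repellent that acts through neuropilin 2, had the highest level of the class, 14.7 FPKM (1215 reads) in the knockdown library and 23.9 FPKM (1725 reads) in the control, 1.505-fold lower (log2 -0.59, -0.70 to -0.48). Sema3a, the founding collapse factor of axons and a neuropilin 1 ligand, had 1277 reads in the knockdown library and 1878 in the control (log2 -0.64, -0.74 to -0.54; 6.07 and 10.2 FPKM). Sema3g, an endothelial semaphorin, had 306 and 462 reads in the knockdown and control libraries (log2 -0.68, -0.89 to -0.47; 2.91 and 5.02 FPKM). All 3 were thus lower by similar factors, and all 3 lost the call with the length and GC trend removed. Sema3c, a cue of the heart outflow tract, had 796 reads in the knockdown library and 886 in the control (log2 -0.24), and Sema3b had 359 and 277 (log2 0.29). Neither of these passed the rule.

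Of the 9 membrane-bound semaphorins 2 were lower, 1 was higher and 6 did not pass. Sema4c, a ligand of Plxnb2, was the most abundant of them, with 1299 reads (13.1 FPKM) in the knockdown library and 2287 reads (26.4 FPKM) in the control, 1.87-fold lower (log2 -0.90, -0.9996 to -0.80). Sema7a, which is held in the membrane by a lipid anchor and binds Plxnc1, had 259 and 403 reads in the knockdown and control libraries (log2 -0.72, -0.95 to -0.49; 3.96 and 7.05 FPKM). Sema4a, a semaphorin best known from immune cells and the retina, had 430 reads (4.87 FPKM) in the knockdown library, against 172 reads (2.23 FPKM) in the control, 2.35-fold higher (log2 1.24, 0.98 to 1.501). Sema4a thus stood at 0.371 of the Sema4c level in the knockdown library and 0.0843 of it in the control. Of the immune markers 7 of 7 were higher, with a summed level of 185.7 FPKM in the knockdown library and 82.6 FPKM in the control. Laptm5 and Cd74 among them were measured only through their knockdown reads. This direction was not particular to the immune list (median log2 1.29), as the mesothelial (1.13) and nerve and glia (1.28) lists shared it. Red blood cell, thymus, liver, heart and skeletal muscle lists had higher medians. The part of the immune markers in the Sema4a value was not tested.

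The members of this class that did not pass ran from Sema6d (log2 -0.40) to Sema5b (log2 0.46). Sema6d, a transmembrane ligand of Plxna1 and next to Sema4c in level in both libraries, had 1222 reads in the knockdown library and 1522 in the control (7.94 and 11.3 FPKM). Sema4b, of similar level, had 805 and 561 reads (log2 0.44; 7.75 and 6.18 FPKM). Sema5a and Sema5b, whose extracellular part carries thrombospondin repeats, had log2 ratios of -0.18 and 0.46. Sema6a, a ligand of Plxna2 and Plxna4, had -0.16, and Sema4d, the ligand of Plxnb1, had 567 reads in the knockdown library and 528 in the control (log2 0.019). For Sema4d the interval of -0.15 to 0.19 held 0. Sema4b and Sema5b were called higher with the length and GC trend removed.

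Plexins, the signalling receptors for semaphorins, were lower in 4 of 8 measured members and higher in 1. Plxnd1, the Sema3e receptor of developing blood vessels, had 7111 reads (43.2 FPKM) in the knockdown library and 13337 reads (92.7 FPKM) in the control, 1.99-fold lower (log2 -0.99, -1.03 to -0.95). It ranked 3rd in level among the 56 members in the knockdown library and 1st in the control. Plxnb2, a broadly expressed plexin, did not pass, with 9461 reads (56.4 FPKM) and 11330 reads (77.3 FPKM) in the knockdown and control libraries (log2 -0.34, -0.38 to -0.30). Plxnb2 therefore made up 39.3% of the summed plexin level in the knockdown library and 31.7% in the control, and Plxnd1 30.1% and 38.1%.

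Plxnb1, the Sema4d receptor, had 2908 reads (13.4 FPKM) in the knockdown library and 5150 reads (27.2 FPKM) in the control (log2 -0.91, -0.97 to -0.84). Plxna1, a receptor partner of the neuropilins, had 3238 and 4956 reads in the knockdown and control libraries (log2 -0.70, -0.76 to -0.63; 13.9 and 24.3 FPKM). Plxnc1, the Sema7a receptor, had 777 and 1221 reads (log2 -0.74, -0.87 to -0.61; 4.67 and 8.39 FPKM). Of the ligand and receptor pairs named here, Sema3e with Plxnd1 and Sema7a with Plxnc1 were lower on both sides, whereas Sema4d did not pass beside Plxnb1, nor Plxnb2 beside Sema4c. Plxnc1, Plxnb1 and Plxna1 lost the call with the length and GC trend removed. Plxna3 (log2 -0.57) and Plxna2 (log2 -0.29) did not pass. Of the exon bases of Plxna1 10.7% overlap a gene on the opposite strand, and reads there cannot be told apart where the strand setting is not given.

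Plxna4, a plexin of sensory and sympathetic neurons that binds class 3 and class 6 semaphorins, was the highest of all measured members by ratio. It had 1137 reads (3.49 FPKM) in the knockdown library, against 392 reads (1.38 FPKM) in the control, 2.73-fold higher (log2 1.45, 1.29 to 1.62). Its level was 0.252 of that of Plxna1 in the knockdown library and 0.0567 of it in the control. Plxnb3, under the read minimum in both libraries, had 49 and 21 reads in the knockdown and control libraries. Of 12 nerve and glia markers 9 were higher and 1 lower, with a summed level of 91.0 FPKM in the knockdown library and 43.2 FPKM in the control. No marker of this list was at 0 reads in either library. Immune, mesothelial and other-organ markers were mostly higher as well, and the part of any list in the Plxna4 value was not tested.

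The neuropilins, co-receptors for class 3 semaphorins and for VEGF, stood apart from the lower plexins by their values. Nrp1 had 3077 reads (29.1 FPKM) in the knockdown library and 2911 reads (31.5 FPKM) in the control, a log2 ratio of -0.0042 (-0.08 to 0.07). Nrp2 had 1769 and 1750 reads in the knockdown and control libraries (log2 -0.069, -0.16 to 0.03; 11.3 and 12.8 FPKM). Both intervals held 0. FPKM is scaled to total counts, so log2 ratios of FPKM run 0.11 below those given here.

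**Figure D2:**
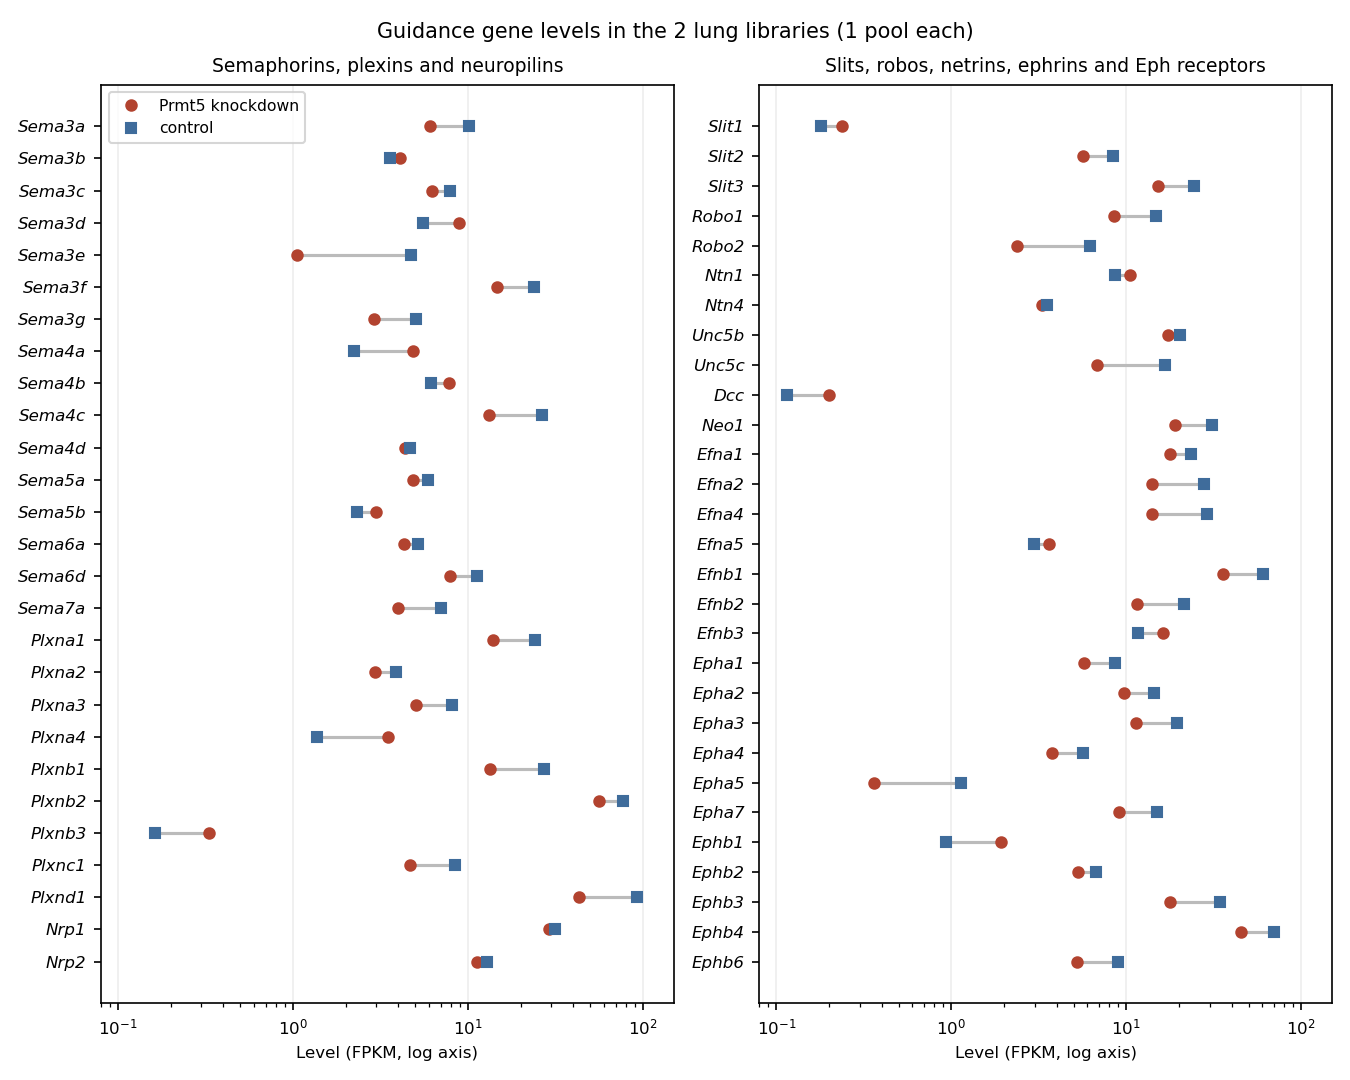
Level of each member in FPKM (log axis) in the knockdown library (red circles) and the control library (blue squares), joined by a grey line. Red lies right of blue for 13 members, among them Plxna4, Sema4a, Sema3d, Ephb1 and Efnb3, and left of it for the others; Dcc, Slit1 and Plxnb3 sit at the low end in both libraries.

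Both robo receptors were lower, and neither measured slit passed the rule. Robo2, a slit receptor, had 502 reads (2.36 FPKM) in the knockdown library, against 1151 reads (6.20 FPKM) in the control, 2.43-fold lower (log2 -1.28, -1.44 to -1.13). Robo1, the more abundant receptor, had 1824 reads (8.54 FPKM) in the knockdown library and 2778 reads (14.9 FPKM) in the control, 1.61-fold lower (log2 -0.69, -0.78 to -0.61). With the length and GC trend removed Robo1 lost the call, while Robo2 kept it. The Robo2 level was 0.276 of that of Robo1 in the knockdown library and 0.416 of it in the control. The ligand Slit3 had 1948 reads (15.1 FPKM) in the knockdown library and 2746 reads (24.3 FPKM) in the control, 1.49-fold lower (log2 -0.58, -0.66 to -0.50), just under the rule. Slit2 had 1390 and 1802 reads (log2 -0.46, -0.56 to -0.36; 5.66 and 8.40 FPKM). Slit1, the slit of the nervous system, was under the read minimum with 39 and 26 reads in the knockdown and control libraries. The order Slit3, Slit2, Slit1 by level held in both libraries.

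In the netrin family 2 receptors were lower and 1 was higher past the rule, and the ligands did not pass. Unc5c, a receptor that turns the netrin response into repulsion, had 1649 reads (6.84 FPKM) in the knockdown library, against 3491 reads (16.6 FPKM) in the control, 2.24-fold lower (log2 -1.17, -1.25 to -1.08). Neo1, the receptor for netrins and for repulsive guidance molecules, had 3782 reads (19.0 FPKM) in the knockdown library and 5371 reads (30.8 FPKM) in the control, 1.505-fold lower (log2 -0.59, -0.65 to -0.53). Unc5b, a receptor of arterial and tip-cell endothelium, had 2627 and 2700 reads (log2 -0.12, -0.20 to -0.05; 17.4 and 20.4 FPKM). The Unc5c level was thus 0.394 of that of Unc5b in the knockdown library and 0.812 of it in the control. The Unc5c promoter window is shown as that of the receptor with the strongest drop in this family (chr3:141465314-141465563, plus strand, marked as above).
Unc5c: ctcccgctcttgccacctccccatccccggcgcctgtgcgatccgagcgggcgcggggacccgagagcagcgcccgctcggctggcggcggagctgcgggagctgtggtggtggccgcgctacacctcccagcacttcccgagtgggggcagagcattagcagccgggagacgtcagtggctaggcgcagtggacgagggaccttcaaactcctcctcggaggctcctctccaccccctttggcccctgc
It had a GC content of 71.2% with 23 CpG pairs, and held none of the motifs searched.

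Ntn1, the classical netrin, had 1557 reads (10.5 FPKM) in the knockdown library and 1111 reads (8.57 FPKM) in the control (log2 0.40, 0.29 to 0.52). With the length and GC trend removed it was called higher (log2 0.74, 0.63 to 0.85). Ntn4, a netrin of basement membranes, had 205 and 193 reads in the knockdown and control libraries (log2 0.0028, -0.29 to 0.29). Dcc, the attractive netrin receptor of neurons, was close to the read minimum, with 54 reads (0.201 FPKM) in the knockdown library and 27 reads (0.115 FPKM) in the control. Its log2 ratio of 0.90 had a wide interval of 0.22 to 1.64, it was measured only through its knockdown reads, and it lost the call when FPKM was used. The nerve and glia markers given with Plxna4 were higher in the same library.

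Among ephrins 4 of 7 were lower and none higher past the rule. Efnb1, an ephrin with a cytoplasmic tail that signals in reverse, had the highest level, 35.6 FPKM (3087 reads) in the knockdown library and 60.8 FPKM (4611 reads) in the control, 1.58-fold lower (log2 -0.66, -0.73 to -0.60). Efnb2, the arterial ephrin, had 1926 reads (11.5 FPKM) in the knockdown library and 3130 reads (21.4 FPKM) in the control, 1.72-fold lower (log2 -0.78, -0.87 to -0.70). Efnb3, a transmembrane ephrin and a midline cue of the nervous system, stood opposite to these. It had 1503 reads (16.2 FPKM) in the knockdown library and 955 reads (11.7 FPKM) in the control (log2 0.57, 0.45 to 0.69), a ratio of 1.48 that fell just short of the rule. With the length and GC trend removed, Efnb1 and Efnb2 lost the call and Efnb3 was called higher. Efnb3 was 1.40 times as abundant as Efnb2 in the knockdown library and 0.548 times in the control.

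The lipid-anchored A ephrins followed a similar split. Efna4 had 575 reads (13.9 FPKM) in the knockdown library and 1043 reads (28.9 FPKM) in the control (log2 -0.94, -1.09 to -0.80), with 10.5% of its exon bases shared with a gene on the opposite strand. Efna2 had 773 and 1348 reads in the knockdown and control libraries (log2 -0.89, -1.02 to -0.76; 14.0 and 28.0 FPKM). Efna1, an ephrin of endothelium and epithelium, had 674 and 780 reads (log2 -0.29, -0.45 to -0.14; 17.8 and 23.6 FPKM). Efna5, which binds most EphA receptors, had 489 and 353 reads (log2 0.39, 0.19 to 0.59; 3.61 and 2.98 FPKM). The last 2 did not pass the rule.

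Eph receptors were lower in 5 of 11 members and higher in 1. EphB4, the venous partner of ephrin-B2 (Ephb4), had the highest level of the class, 45.2 FPKM (5072 reads) in the knockdown library and 70.2 FPKM (6888 reads) in the control. Its ratio of 1.44 (log2 -0.53, -0.58 to -0.47) stayed under the rule, but it passed with total counts (log2 -0.64), with totals without the 32 markers (-0.59) and with FPKM (-0.63 and -0.62 at the pseudocounts of 0.1 and 1). It held 39.2% of the summed Eph receptor level in the knockdown library and 37.8% in the control. Ephb3, a receptor of epithelia and vessels, had 1781 reads (17.7 FPKM) in the knockdown library and 3014 reads (34.2 FPKM) in the control, 1.79-fold lower (log2 -0.84, -0.93 to -0.76). Ephb6, whose kinase domain is inactive, had 472 and 708 reads in the knockdown and control libraries (log2 -0.67, -0.84 to -0.50; 5.23 and 8.97 FPKM). It lost the call with the length and GC trend removed. Ephb2 did not pass, with 1488 and 1655 reads (log2 -0.24).

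Ephb1 was the 1 Eph receptor that was higher. It had 229 reads (1.92 FPKM) in the knockdown library, against 97 reads (0.933 FPKM) in the control, 2.22-fold higher (log2 1.15, 0.81 to 1.51). Ephb1 is known from axon guidance in the visual system, and the nerve and glia markers, like those of several other lists, were mostly higher too. Its promoter window (chr9:102354694-102354943, minus strand, marked as above) is shown as that of the only higher Eph receptor.
Ephb1: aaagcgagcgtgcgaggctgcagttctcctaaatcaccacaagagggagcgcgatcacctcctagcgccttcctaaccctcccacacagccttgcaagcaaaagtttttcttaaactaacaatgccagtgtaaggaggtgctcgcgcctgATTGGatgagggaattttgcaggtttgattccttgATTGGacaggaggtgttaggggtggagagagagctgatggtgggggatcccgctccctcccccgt
The window held 2 CCAAT boxes and no GC box.

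All 6 EphA receptors had log2 ratios below 0 with intervals that excluded 0, and 3 of them passed the rule. Epha5, a receptor of the nervous system, had 69 reads (0.363 FPKM) in the knockdown library, against 188 reads (1.13 FPKM) in the control, 2.87-fold lower (log2 -1.52, -1.95 to -1.12). Its direction was opposite to that of the nerve and glia markers. Epha3, a receptor of mesenchymal cells and the EphA gene with the highest FPKM here, had 1161 reads (11.3 FPKM) in the knockdown library and 1757 reads (19.6 FPKM) in the control (log2 -0.68, -0.79 to -0.57). Its FPKM used a length of 0.458 times its GENCODE M21 exon bases, against 0.764 for Epha2, so this order depends on the lengths. Epha7 had 1082 and 1573 reads in the knockdown and control libraries (log2 -0.62, -0.74 to -0.51; 9.07 and 15.1 FPKM). With the length and GC trend removed Epha7 lost the call. The remaining EphA genes were close together under the rule, Epha1 at -0.49, Epha2, an epithelial receptor, at -0.46 and Epha4 at -0.48. Epha2 had 895 reads in the knockdown library and 1165 in the control.

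**Figure D3:**
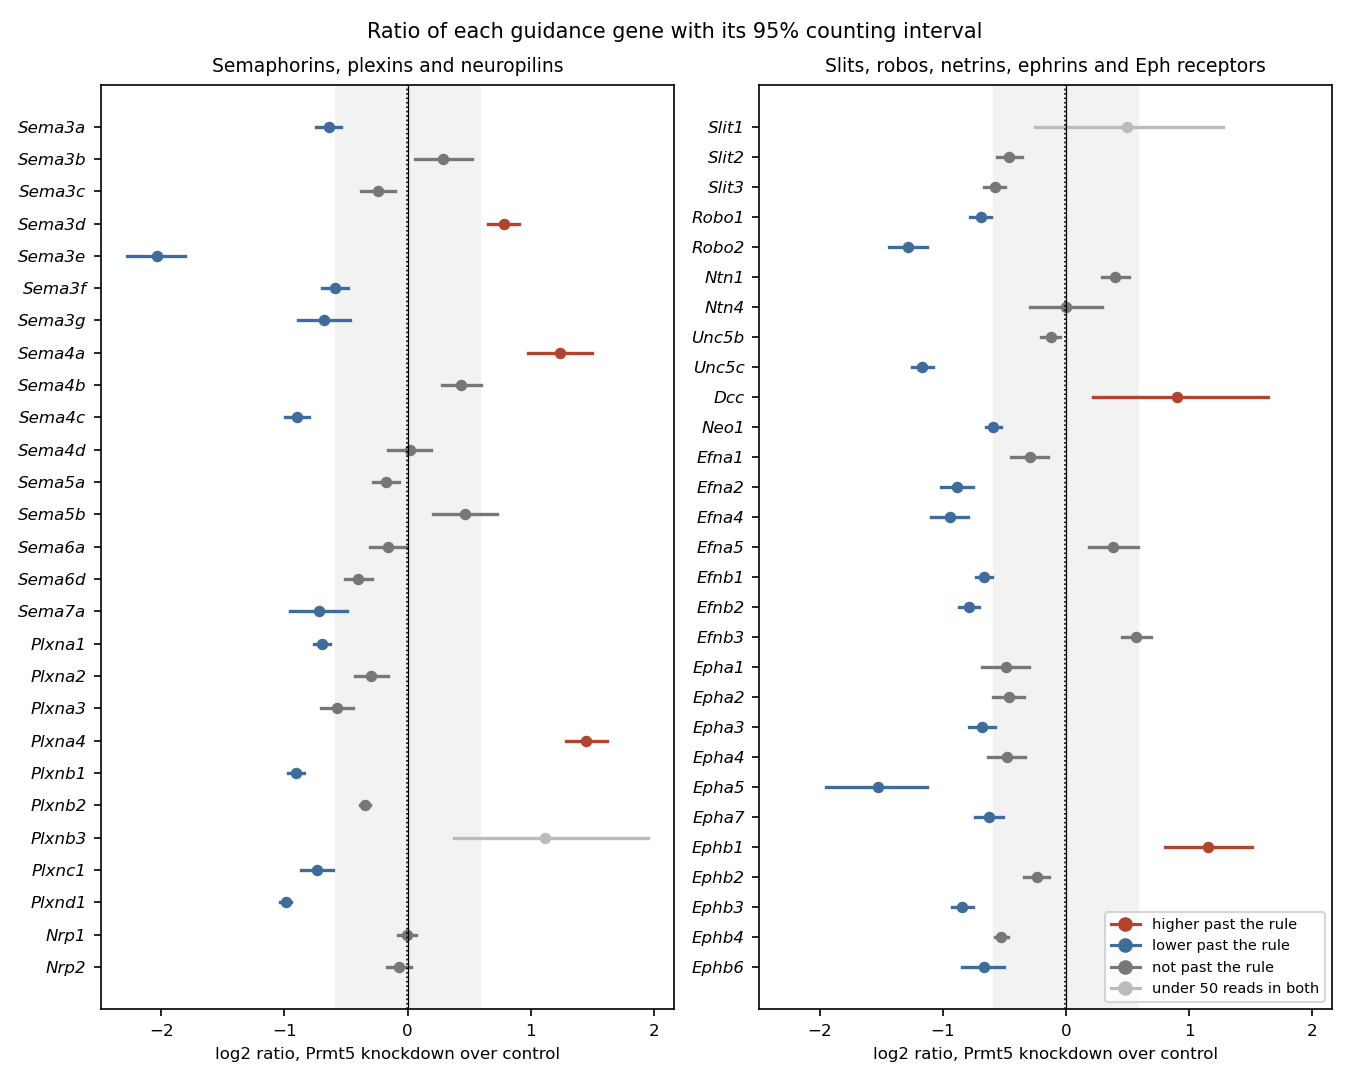
Log2 ratio of knockdown over control for each member (points) with its 95% counting interval (lines). The grey band marks ratios under 1.5, the dotted line the median of all measured genes; 23 members lie left of the band in blue and 5 right of it in red, and the 2 pale members are under the read minimum.

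By side, 10 of 27 measured ligands and 13 of 27 measured receptors were lower, and 2 ligands and 3 receptors were higher; the difference between the sides was not tested. The members nearest to the rule were Neo1 and Sema3f, each 1.505-fold lower and inside it, and Slit3, Plxna3 and Efnb3, at 1.49-fold, 1.49-fold and 1.48-fold and outside it. DESeq2 size factors moved Neo1, Sema3f and Efnb3 across the rule, and total counts moved Slit3 and Plxna3. Across the 56 members, Spearman's rho between the FPKM of the 2 libraries was 0.93, and across all 14569 measured genes it was 0.89, given as descriptions since genes are not independent.

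**Figure D4:**
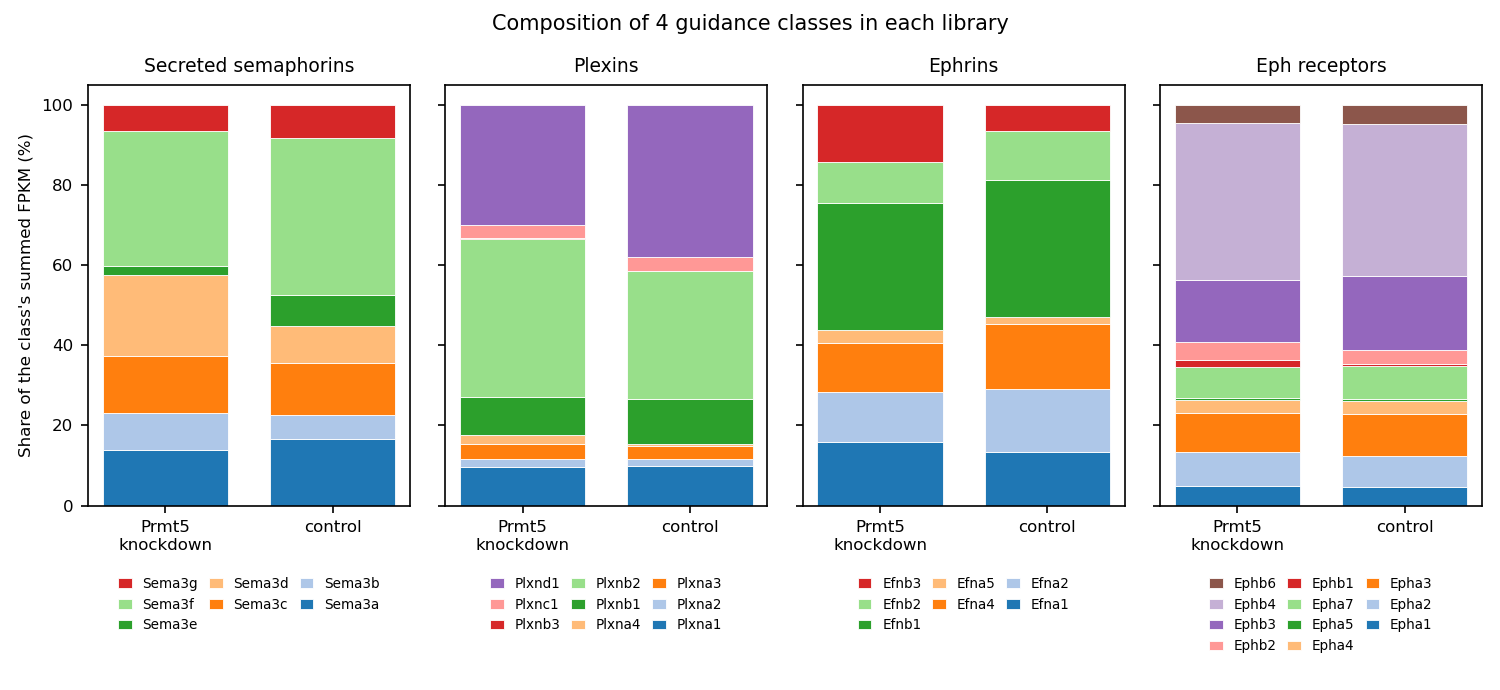
Share of each gene (colours) in the summed FPKM of its class (y axis, %), in the knockdown library (left bar) and the control library (right bar). Sema3d takes 20.1% of the secreted semaphorins in the knockdown library and 9.12% in the control, Efnb3 14.3% and 6.62% of the ephrins, and Plxnd1 30.1% and 38.1% of the plexins, while Ephb4 takes 39.2% and 37.8% of the Eph receptors.

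The marker lists of lung cell types went in different directions. Of 11 endothelial markers 5 were lower and 1 higher. Their median log2 ratio was -0.57 and their summed level was 296.6 FPKM in the knockdown library and 482.3 FPKM in the control. That median lay near those of the ephrin and Eph family (-0.57) and of the slits and robos (-0.64), whereas the semaphorins with their receptors had -0.32 and the netrin family -0.060. Taken alone, the plexins (-0.64) and secreted semaphorins (-0.59) also lay near it, unlike the membrane-bound semaphorins (-0.16) and neuropilins (-0.036). Of 10 lung mesenchyme markers 6 were lower and none higher (median -0.97), and the lung epithelial list had a median of -2.04. Mesothelial markers were higher in 7 of 7 (148.6 FPKM in the knockdown library and 82.0 FPKM in the control), red blood cell markers in 8 of 9 and thymus epithelium markers in 4 of 4, of which Pax1 had 0 control reads. Foxn1, Psmb11 and Pax1 of the thymus list were measured only through their knockdown reads, as were markers of other lists with under 50 control reads. Such genes could not be called lower. The rule called 20.7% of all measured genes higher. Of 5 measured smooth muscle markers 3 were lower and 1 higher. The part of any of these lists in the guidance values was not tested.

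**Figure D5:**
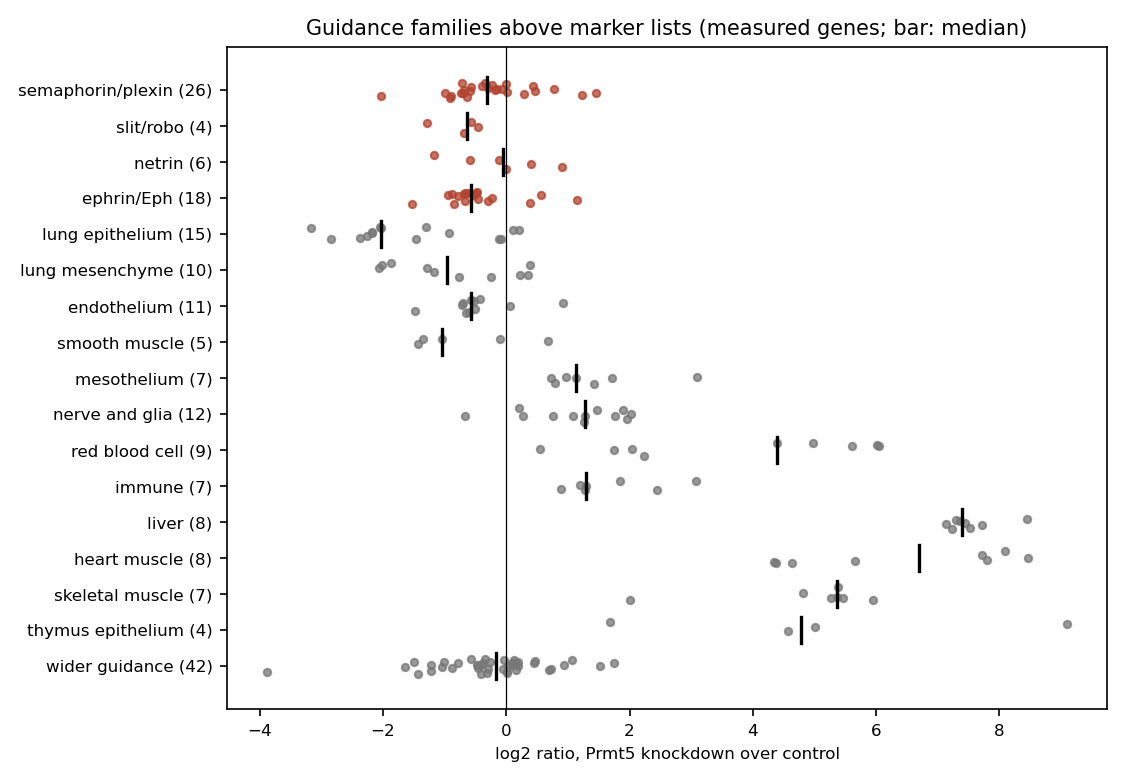
Log2 ratio of knockdown over control (x axis) for each measured gene of the 4 guidance families (red), of the marker lists and of the wider guidance list (grey), with the number of genes in brackets and a bar at each median. The families lie mostly between -1 and 0.5, above the lung epithelial list and far from the liver, heart and skeletal muscle lists at the right. The medians of the ephrin/Eph (-0.57) and slit/robo (-0.64) families lie near that of the endothelial list (-0.57). Those of the semaphorin/plexin (-0.32) and netrin (-0.060) families lie to the right of it. Within the semaphorin/plexin family, not split in the figure, plexins (-0.64) and secreted semaphorins (-0.59) had medians near it.

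A wider list of 48 guidance genes outside the 56, with co-receptors, further ligands and intracellular partners, went both ways. Of 42 measured genes 10 were lower and 6 higher, and the median log2 ratio was -0.16. The largest changes by the interval bound nearest to a ratio of 1 were in 6 genes. Sema4f, a membrane semaphorin, had 12 reads in the knockdown library and 173 in the control (log2 -3.88, -4.91 to -3.09). Lower as well were the netrin Ntn3 with 950 and 2087 reads (log2 -1.22), the endothelial receptor Robo4 with 589 and 1296 reads (log2 -1.22) and Epha8 with 41 and 122 reads (log2 -1.65) in the knockdown and control libraries. Higher were Dpysl3, a collapsin response mediator of growth cones, with 5806 reads in the knockdown library and 1918 in the control (log2 1.51, 1.44 to 1.59), and Ngef, the exchange factor ephexin that acts below EphA receptors, with 162 and 45 reads (log2 1.75, 1.28 to 2.27). Sema4f and Epha8 were measured only through their control reads, and Ngef only through its knockdown reads.

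Promoters of the members were rich in GC. RefSeq promoter windows were held for 47 of the 56 members, 60 windows in all, with a median GC content of 64.6%, against 52.4% over all 32851 windows. A GC box was present in 42 of these 60 windows (70.0%), and in 32.7% of all windows. All windows together cover 27025 genes and were not limited to measured genes, unlike the gene shares given above. Of the 25 windows of lower members 16 held a GC box, of the 6 windows of higher members 3, and of the 28 windows of members that did not pass 23 (82.1%). Of the 6 windows of higher members 4 belong to Sema4a, among them all 3 with a GC box. A CCAAT box was in 6 of the 25, 3 of the 6 and 5 of the 28, and in 33.8% of all windows, and a TATA box (TATAAA or TTTATA) was in 1 of the 25, 0 of the 6 and 1 of the 28, and in 12.4% of all windows. Letters that match a motif are a description of the window and say nothing on binding.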

How the data were processed

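The authors deposited raw read counts per gene and FPKM for the same 41709 entries. Per the submitters' processing notes, TopHat2 2.0.12 with Bowtie2 2.2.3, HTSeq 0.6.1 and mm10 were used; the annotation, strand setting and treatment of multiply mapped reads were not given in the sources used here. In the deposited FPKM, counts were divided by a fixed gene length and by the total count. These lengths were 0.374 to 1.30 times the GENCODE M21 exon union for the members, which bears on levels compared between genes.

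Symbols and positions came from RefSeq GRCm38.p6, which matched 40269 entries. Counts were scaled by trimmed means of M values in R 4.3.3 with edgeR 4.0.16. The factor was 0.963 in the knockdown and 1.04 in the control library. Log2 ratios used a prior count of 0.5. Intervals are exact Clopper-Pearson intervals of the 2 counts given their sum (Python 3.11.15, scipy 1.17.1). They cover counting error only, and PCR copies are not independent molecules. With 1 library per genotype no p-value is given. Code was tested on simulated counts.

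Every member was accounted for; those past the rule, and the 3 highest by mean FPKM in each family, were given with both libraries' values. Of the wider list, up to 6 genes past the rule were named by their interval bound. Members, lists and rules were chosen with earlier results of these data known. Alternatives were other scalings (size factors of DESeq2 1.42.0, total counts, and those totals less the red cell, liver and muscle lists; no mitochondrial gene was among the entries), prior count, FPKM, read minimum, ratio and, added after the data were seen, a length and GC correction and leaving out the most extreme member.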

Additional observations from a re-analysis of the deposited data

How the results depend on the processing

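No called member changed direction under any of 7 settings of scaling, prior count, unit or length and GC correction. The settings could not have given another outcome, as a call asks for a log2 ratio of at least 0.58 in size. Total counts shifted ratios by -0.11, and the length and GC correction subtracted between -0.46 and 0.20 from the members. Under all 7 settings, 11 members stayed lower and 4 stayed higher (Ephb1, Plxna4, Sema3d and Sema4a). The count of higher members was 5 and of lower members 23. A ratio of 2 gave 3 higher and 4 lower (14.0% and 4.83% of all genes), a ratio of 5 to 4 gave 10 higher and 32 lower (28.2% and 24.4%), and the length and GC correction, added after the data were seen, gave 9 higher and 11 lower, with 12 lower calls lost. Higher genes made up 17.9% of called members, and 45.0% after that correction, against 62.7% and 69.0% of all called genes. Ephb4 was gained as lower in 4 settings, each scaled to total counts in full or less the listed markers. It was not gained with DESeq2 size factors or with the length and GC correction. DESeq2 size factors lost Neo1 and Sema3f and gained Efnb3. Family medians in the order semaphorin, slit, netrin and ephrin were -0.32, -0.64, -0.060 and -0.57. They were -0.10, -0.39, 0.089 and -0.44 with the length and GC correction. Total counts gave -0.43 for semaphorins and -0.74 for slits, and FPKM with a pseudocount of 0.1 gave -0.42 and -0.74. The mean in place of the median gave -0.75 for slits and -0.44 for ephrins. Without Unc5c the netrin median was 0.0028, so the netrin family has no defined direction. The cause of these changes was not tested.

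No paired analysis was possible because each genotype has 1 library, and leaving out a replicate was not run for the same reason. Slit1 and Plxnb3, under 50 reads in both libraries, are limited by depth.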

Other observations

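Some members lie close together on a chromosome. Pairs under 1 Mb apart with no other member between them are given here. Sema3d, Sema3a and Sema3e lie in this order on chromosome 5, with gaps of 536 and 422 kb, and had log2 ratios of 0.78, -0.64 and -2.04. Sema4a and Efna1 lie 811 kb apart on chromosome 3, with 1.24 and -0.29. Ephb6 and Epha1 lie 738 kb apart on chromosome 6, with -0.67 and -0.49. Sema7a and Neo1 lie 912 kb apart on chromosome 9, with -0.72 and -0.59. Sema3b and Sema3f lie 72 kb apart on chromosome 9, with 0.29 and -0.59. Efna1 and Efna4 lie 52 kb apart on chromosome 3, with -0.29 and -0.94. Robo1 and Robo2, 844 kb apart on chromosome 16, were lower together, with -0.69 and -1.28. Plxnb3 and Plxna3, 556 kb apart on the X chromosome, had 1.12 (49 and 21 reads in the knockdown and control libraries) and -0.57.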
